A study of Mus musculus with 15 samples.

Results

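Among 15 mouse lines of induced extraembryonic endoderm stem (iXEN) cells, 3 carried at least 25 CPM of Col1a1, the gene of the main chain of type I collagen, and the other 12 carried less. CPM is the count of a gene scaled to a common total of reads assigned to genes in each library. The 3 high-Col1a1 lines were lentiviral OSKM replicate 5, lentiviral SKM replicate 1 and retroviral OSKM replicate 1, so that each labelled group of 5 lines held 1 of them. Values of the 3 lines are listed throughout in that order. Lentiviral SKM lines were made with 3 factors, Sox2, Klf4 and Myc, delivered by lentivirus, without Oct4. Retroviral OSKM lines received Oct4, Sox2, Klf4 and Myc, 4 factors, by retrovirus, and each was cloned from a single cell with an active Oct4-EGFP reporter. Lentiviral OSKM lines received the same 4 factors by lentivirus. All 15 lines carry the genotype label CD1 and, per the series description, came from mouse embryonic fibroblasts. Both lentiviral groups were past passage 11 and came from distinct fibroblast preparations. Whether the retroviral clones shared a preparation is not stated, and each library was 1 line. Titles of the lentiviral lines begin with IPS, and some fields name embryonic stem cells as the start or a pluripotent state as the end point, so the account given here follows the series description. Because the lines were chosen by Col1a1 in these same libraries, what sets them apart is given as a description, and genes were tested only between the labelled groups.

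Mesenchymal cells such as fibroblasts build the interstitial matrix: they secrete fibrillar collagens, cross-link them outside the cell and hold them through collagen receptors, under transcription factors such as Prrx1 and Twist1. Extraembryonic endoderm is an epithelial lineage whose parietal branch secretes a thick basement membrane of laminin and type IV collagen, and parietal endoderm arises by a transition from epithelium to a migratory, mesenchyme-like cell. Fibroblasts are also the cells from which these lines were made, so mesenchymal transcripts in an iXEN line can have more than 1 origin, which was not tested.

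Gene-assigned counts came to 35336342 to 66131358 in the high-Col1a1 lines and 34916933 to 75376275 in the other lines. The number of genes with a count ranged from 20313 to 20794 in the high-Col1a1 lines and from 19399 to 21048 in the other lines. Where a gene had no read, the limit taken was 3 counts, which is 0.0398 to 0.0859 CPM depending on the library and covers counting error only. Retroviral OSKM replicate 3 stood apart among the other lines: it held the highest value of the 12 for 23.7% of 14967 genes, with endothelial transcripts such as Pecam1 (148 CPM) and a low level of the endoderm factor Foxa2 (2.84 CPM). Counts from bulk RNA cannot tell fewer cells of a type from less RNA per cell, and this holds for every level given here.

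Col1a1 (chr11:94936224-94953042, plus strand, GRCm38) was at 213, 146 and 52.5 CPM in the high-Col1a1 lines, against 0 to 10.1 CPM with a median of 0.122 CPM in the other lines. The line just inside the threshold was retroviral OSKM replicate 1 at 52.5 CPM, and the line just outside it was lentiviral SKM replicate 2 at 10.1 CPM. The remaining 11 lines were at 0.745 CPM or lower, and 2 of them had no Col1a1 read. These levels chose the lines and are given without a test. Thy1 (chr9:44043384-44048579, plus strand), the surface antigen CD90 of fibroblasts, was at 43.7, 14.1 and 0.877 CPM in the high-Col1a1 lines, against 0 to 4.96 CPM with a median of 0.0251 CPM in the other lines. Lentiviral OSKM replicate 5 and lentiviral SKM replicate 1 stood above every other line in Thy1, whereas retroviral OSKM replicate 1, with 31 Thy1 reads, lay below lentiviral SKM replicate 2. Col4a1 (chr8:11198423-11312826, minus strand), a chain of basement membrane type IV collagen, was at 67.7, 15318 and 56.4 CPM in the high-Col1a1 lines, against 5379 to 29622 CPM with a median of 11721 CPM in the other lines. It was low in lentiviral OSKM replicate 5 and retroviral OSKM replicate 1, and in lentiviral SKM replicate 1 it lay inside the range of the other lines. The 3 lines therefore shared high Col1a1 without sharing the other markers, and they are named here by Col1a1 alone.

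**Figure D1:**
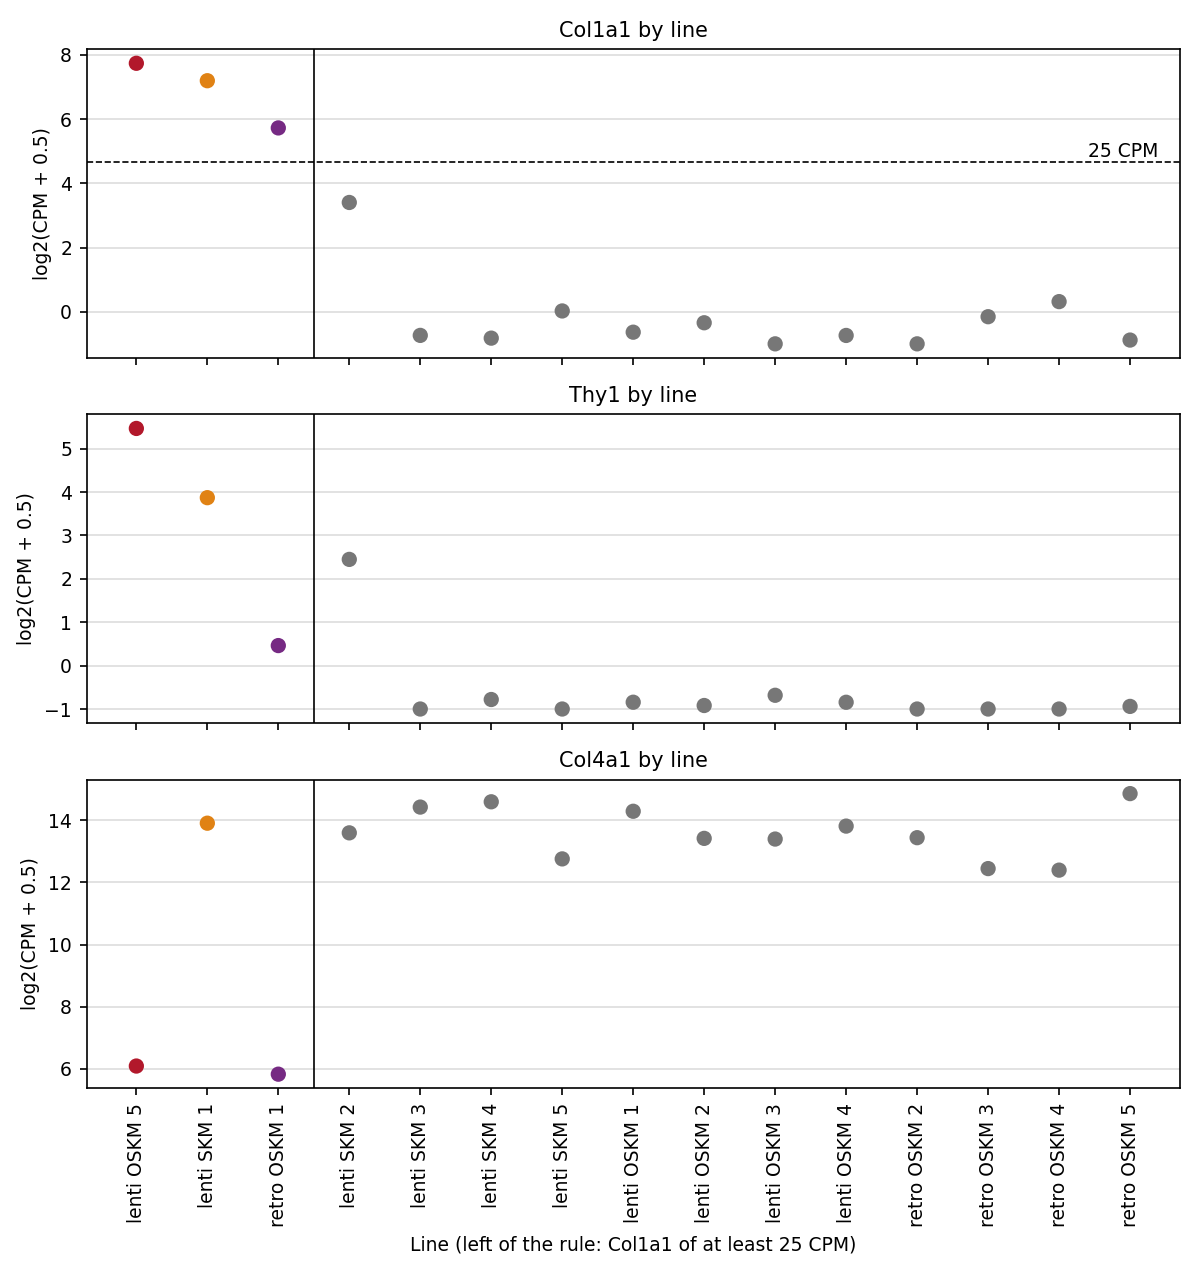
Levels of Col1a1, Thy1 and Col4a1 in each of the 15 lines, as log2(CPM + 0.5), 1 point per line; coloured points left of the vertical rule are the 3 high-Col1a1 lines and grey points are the other 12. The dashed line marks the 25 CPM threshold; Thy1 is high in 2 of the 3 coloured lines, and Col4a1 is low in 2 of them.

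Across all genes, the mesenchymal lists held 144 genes in 10 lists, and 114 of these reached 0.5 CPM in at least 3 lines, the filter that 14967 genes passed. A gene was counted as standing apart when the values of the high-Col1a1 lines and of the other lines did not overlap and their medians of log2(CPM + 0.5) were at least 4-fold apart. By that rule 9 mesenchymal list genes stood higher: Col1a1 itself, Col6a3, Fn1, Fbln5, Ltbp1, Prrx1, Prrx2, Ddr2 and Inhba. Over all genes 103 stood higher, 0.688% of those that passed the filter, and 6 stood lower, 0.0401%. These counts became 266 and 21 without lentiviral SKM replicate 1, 182 and 22 without retroviral OSKM replicate 1, and 132 and 22 without lentiviral OSKM replicate 5. The mesenchymal count became 18 without lentiviral SKM replicate 1, 29 without retroviral OSKM replicate 1 and 16 without lentiviral SKM replicate 2. Since the rule used these libraries, nothing is read from the difference between those shares. The filter also asked for no more than 3 lines, so a gene present in the 3 high-Col1a1 lines alone could pass it. Fbln5 and Inhba passed only through those lines, with at most 0.496 and 0.4 CPM in the other lines. Some of the 103 genes did too, such as Ptx3, with at most 0.048 CPM in the other lines. Prrx1, Prrx2 and Ddr2 also needed the high-Col1a1 lines to pass. Among the other lines, Prrx1 and Prrx2 reached 0.5 CPM only in lentiviral SKM replicate 2. Ddr2 did so only there and in retroviral OSKM replicate 3. Another 2 mesenchymal genes, Prelp and Adamts5, met the rule but not the filter. Tgfbi, Foxc1 and Cd34 stood higher without overlap but by less than 4-fold between medians; over all genes 239, or 1.6%, stood higher and 82, or 0.548%, stood lower without overlap at any fold. Without Col1a1 the median difference over the 143 other mesenchymal members was 0.74 on the log2 scale, against 0.04 over all 14967 genes. Of the 144 members, 30 of which did not pass the filter, 106 had a difference above 0 and 31 below 0, against 8021 above and 6945 below 0 among the 14967 genes.

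**Figure D2:**
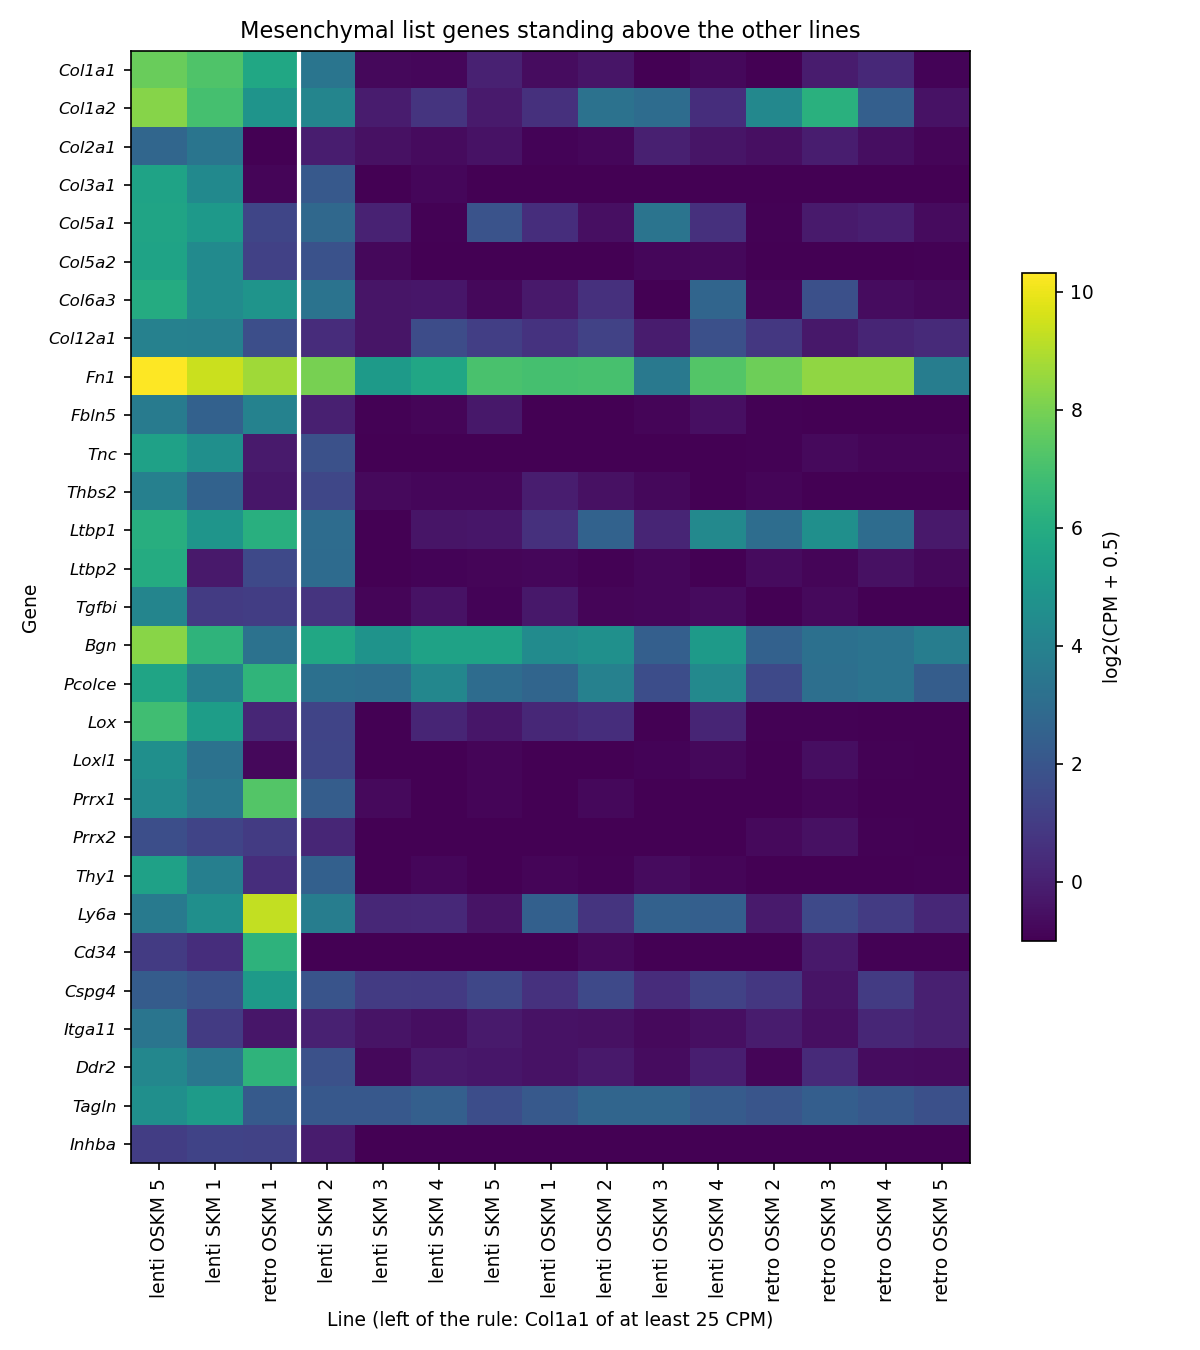
Levels of 29 mesenchymal list genes as log2(CPM + 0.5), by line, with the 3 high-Col1a1 lines left of the white rule; shown are the members that passed the filter and stood higher as a set or were at least 4-fold above all 12 other lines in at least 1 of the 3. Rows run in list order from fibrillar collagens to the TGF-beta pathway, and lentiviral SKM replicate 2, right of the rule, carries intermediate values of many of them.

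Fibrillar collagens form the tensile fibres of connective tissue. Col1a2, the partner chain of Col1a1 in type I collagen, was at 304, 127 and 28.4 CPM in the high-Col1a1 lines, against 0.234 to 72.1 CPM with a median of 2.98 CPM in the other lines. The sets overlapped, since retroviral OSKM replicate 3 carried more Col1a2 than retroviral OSKM replicate 1. Per kilobase of exon, Col1a1 in the high-Col1a1 lines was 1.33, 2.19 and 3.50 times Col1a2, and the ratio ran from 0 to 2.55 in the other lines, with 1.11 in lentiviral SKM replicate 2 and 0.0105 in retroviral OSKM replicate 3. The sets overlapped in this ratio. The exon length used was the union over all annotated transcripts, 6563 bases for Col1a1 and 12426 for Col1a2, and the ratio depends on it. Without that scaling, lentiviral OSKM replicate 5 had more Col1a2 (304 CPM) than Col1a1 (213 CPM). Col3a1, the type III collagen chain of loose connective tissue, was at 46.96, 20.3 and 0.0566 CPM in the high-Col1a1 lines, against 0 to 3.92 CPM with a median of 0 CPM in the other lines. Retroviral OSKM replicate 1 had 2 Col3a1 reads, so the gene separated it from the lentiviral pair. The type V chains, which nucleate collagen fibrils, followed the same order: Col5a1 was at 48.5, 33.2 and 2.04 CPM in the high-Col1a1 lines, against 0.0164 to 9.69 CPM with a median of 0.501 CPM in the other lines. Col5a2 was at 46.5, 20.7 and 1.78 CPM in the high-Col1a1 lines, against 0 to 3.09 CPM with a median of 0.00716 CPM in the other lines. In both, the lentiviral pair lay above every other line and retroviral OSKM replicate 1 lay among them. The pair and retroviral OSKM replicate 1 also differ in delivery, cloning, count table and depth, which cannot be told apart in these lines. Col2a1, the fibrillar collagen of cartilage, was at 6.08, 10.1 and 0 CPM in the high-Col1a1 lines, against 0.0429 to 0.504 CPM with a median of 0.2 CPM in the other lines, with no read in retroviral OSKM replicate 1. Of 11 fibrillar collagen genes, 10 passed the filter and 1, Col1a1, stood apart.

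The promoter window of Col1a2 is shown because Col1a2 is the partner of the gene that chose the lines, and that of Prrx1 because this factor stood apart in all 3 lines. Each window runs from 250 bases before to 50 bases after the RefSeq gene start, 5′ to 3′ on the gene's strand, on GRCm38.p6, with Col1a2 at chr6:4505368-4505667 (plus strand) and Prrx1 at chr1:163313601-163313900 (minus strand). For these 2 genes the RefSeq start differs from the GENCODE position used elsewhere. In GENCODE, Col1a2 begins at chr6:4504814, upstream of the whole window. Capitals mark the CCAAT box (CCAAT), the GC box (GGGCGG) and a TATA motif (TATAAA), searched on both strands without overlap between motifs.
Col1a2: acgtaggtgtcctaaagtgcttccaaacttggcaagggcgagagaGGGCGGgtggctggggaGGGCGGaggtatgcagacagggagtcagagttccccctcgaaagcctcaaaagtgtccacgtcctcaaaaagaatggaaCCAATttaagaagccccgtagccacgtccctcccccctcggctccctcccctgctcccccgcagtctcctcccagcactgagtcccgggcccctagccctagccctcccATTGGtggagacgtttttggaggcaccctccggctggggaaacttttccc
Prrx1: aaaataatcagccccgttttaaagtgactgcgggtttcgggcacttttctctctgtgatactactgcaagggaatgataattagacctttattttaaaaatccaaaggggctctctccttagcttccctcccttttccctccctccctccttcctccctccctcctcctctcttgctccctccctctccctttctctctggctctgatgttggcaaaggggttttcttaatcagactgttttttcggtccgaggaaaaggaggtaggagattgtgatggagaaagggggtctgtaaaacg
The Col1a2 window held 2 matches to CCAAT and 2 to GGGCGG, and the Prrx1 window held none of the 3 motifs. Of 32851 windows of this length in the table, 37.4% held CCAAT, 35.7% held GGGCGG and 13.6% held TATAAA. A match describes the letters and is not evidence of binding. Windows were found for 91 of the 144 mesenchymal genes; Col1a1 and Thy1 were among those without one.

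Among the other interstitial collagens, Col6a3, a chain of the microfibrillar type VI collagen around cells, was at 61.4, 21.4 and 28.6 CPM in the high-Col1a1 lines, against 0 to 9.29 CPM with a median of 0.292 CPM in the other lines. All 3 high-Col1a1 lines lay above every other line, the highest of which was lentiviral SKM replicate 2. Its partner chains did not separate the lines: Col6a1 was at 153, 24.7 and 194 CPM in the high-Col1a1 lines, against 4.94 to 128 CPM with a median of 48.8 CPM in the other lines. Col6a2 was at 50.4, 13.2 and 124 CPM in the high-Col1a1 lines, against 1.64 to 61.9 CPM with a median of 19.8 CPM in the other lines. Both were highest in retroviral OSKM replicate 1, and lentiviral SKM replicate 1 lay within the range of the other lines. Col12a1, a collagen that decorates fibrils, was at 15.1, 14.8 and 2.83 CPM in the high-Col1a1 lines, against 0.286 to 2.88 CPM with a median of 0.953 CPM in the other lines. Col8a1, a short-chain collagen, was at 35.9, 9.74 and 0 CPM in the high-Col1a1 lines, against 0 to 0.288 CPM with a median of 0.0214 CPM in the other lines. These last 2 were high in the lentiviral pair and not in retroviral OSKM replicate 1. Of the 10 genes in the list, 6 passed the filter and 1 stood apart.

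Matrix glycoproteins gave 3 of the 9 genes. Fn1, fibronectin, on which cells assemble other matrix, was at 1270.2, 679 and 421 CPM in the high-Col1a1 lines, against 11.5 to 346 CPM with a median of 131 CPM in the other lines. The lowest of the 3 lines lay just above retroviral OSKM replicate 3, the highest of the others. Fbln5, which is needed to assemble elastic fibres, was at 12.4, 5.26 and 15.8 CPM in the high-Col1a1 lines, against 0 to 0.496 CPM with a median of 0.0275 CPM in the other lines. Ltbp1, which stores latent TGF-beta in the matrix, was at 67.7, 29.1 and 70.6 CPM in the high-Col1a1 lines, against 0.0143 to 24.6 CPM with a median of 3.17 CPM in the other lines. In both genes the 3 lines lay above all 12 others, and retroviral OSKM replicate 1 was as high as the lentiviral pair. Tnc, tenascin C of remodelling connective tissue, was at 43.7, 24.03 and 0.368 CPM in the high-Col1a1 lines, against 0 to 2.99 CPM with a median of 0 CPM in the other lines. Thbs2, an anti-angiogenic thrombospondin of fibroblasts, was at 14.7, 5.32 and 0.311 CPM in the high-Col1a1 lines, against 0 to 2.16 CPM with a median of 0.0808 CPM in the other lines. Tnc and Thbs2 were again high in the lentiviral pair alone among the 3, with lentiviral SKM replicate 2 next. Ltbp2 was at 61.01 CPM in lentiviral OSKM replicate 5, and the remaining high-Col1a1 lines lay inside the range of 0.0142 to 7.23 CPM of the other lines. Of 19 glycoprotein and elastic fibre genes, 14 passed the filter. Elastin (Eln) reached at most 0.1 CPM, in lentiviral OSKM replicate 1.

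Among 9 matrix proteoglycans, 4 passed the filter and none of these stood apart by the 4-fold rule. Biglycan (Bgn), a collagen-binding proteoglycan, was at 314, 82.1 and 8.999 CPM in the high-Col1a1 lines, against 4.81 to 52.1 CPM with a median of 23.4 CPM in the other lines. It was highest in the lentiviral pair, and retroviral OSKM replicate 1 lay low among the other lines. Prelp, a leucine-rich repeat proteoglycan of connective tissue, was at 3.89, 0.197 and 23.5 CPM in the high-Col1a1 lines, against 0 to 0.176 CPM with a median of 0 CPM in the other lines, below the filter because so few lines carried it. Decorin (Dcn) and lumican (Lum), typical products of mature fibroblasts, stayed low. Dcn was at 2.18, 0.121 and 0.226 CPM in the high-Col1a1 lines, against 0 to 0.143 CPM with a median of 0.0293 CPM in the other lines. Lum did not exceed 0.0932 CPM in any line. The list median was 1.42, −0.21 and −0.46 on the log2 scale in the high-Col1a1 lines, and reached 0.02 in the other lines.

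Collagen folding and cross-linking genes act at different steps. Inside the cell, chaperones and hydroxylases serve all collagens, type IV included. Serpinh1, the collagen chaperone HSP47, was at 3000.1, 5189 and 3326 CPM in the high-Col1a1 lines, against 2460.3 to 6467 CPM with a median of 4535 CPM in the other lines. P4ha1, a catalytic subunit of prolyl hydroxylase, was at 1093, 1319 and 1330.4 CPM in the high-Col1a1 lines, against 517 to 2306 CPM with a median of 1541 CPM in the other lines. Both were abundant in every line and overlapped, and none of the 20 members, which all passed the filter, stood apart as a set. Of the extracellular enzymes, lysyl oxidase (Lox), which cross-links fibrillar collagen and elastin, was at 116, 39.1 and 0.651 CPM in the high-Col1a1 lines, against 0 to 1.98 CPM with a median of 0.159 CPM in the other lines. Loxl1, its relative in elastic fibre cross-linking, was at 24.6, 8.98 and 0.0849 CPM in the high-Col1a1 lines, against 0 to 2.08 CPM with a median of 0.0143 CPM in the other lines. In retroviral OSKM replicate 1 both were within the range of the other lines. Loxl3, another member of that family, was at 46.9, 6.91 and 22.8 CPM in the high-Col1a1 lines, against 0.489 to 13.2 CPM with a median of 2.33 CPM in the other lines. Loxl4 was at 4.66, 2.18 and 7.33 CPM in the high-Col1a1 lines, against 0.0164 to 2.37 CPM with a median of 0.202 CPM in the other lines. Pcolce, which speeds removal of the procollagen C-propeptide, was at 47.97, 14.4 and 83.9 CPM in the high-Col1a1 lines, against 2.297 to 19.8 CPM with a median of 8.23 CPM in the other lines. For Pcolce, retroviral OSKM replicate 1 was the highest of the 15 lines and lentiviral SKM replicate 1 overlapped the others. Matrix proteases and their inhibitors, 12 genes of which 7 passed, did not stand apart: the gelatinase Mmp2 was at 43.9, 15.5 and 10.9 CPM in the high-Col1a1 lines, against 1.63 to 98.3 CPM with a median of 7.296 CPM in the other lines. Timp2, an inhibitor of such enzymes, was at 659, 278 and 195 CPM in the high-Col1a1 lines, against 30.4 to 785 CPM with a median of 579 CPM in the other lines. Adamts5, an aggrecanase, was at 2.38, 5.61 and 0.0283 CPM in the high-Col1a1 lines, against 0 to 0.0136 CPM with a median of 0 CPM in the other lines, without overlap but below the filter and with a single read in retroviral OSKM replicate 1.

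Among 22 mesenchymal transcription factors, 14 passed the filter and Prrx1 and Prrx2 stood apart. Prrx1 (chr1:163245119-163313710, minus strand), a homeobox factor of limb and craniofacial mesenchyme, was at 20.7, 10.96 and 156 CPM in the high-Col1a1 lines, against 0 to 4.57 CPM with a median of 0 CPM in the other lines. Its highest level was in retroviral OSKM replicate 1, and 7 of the other lines had no Prrx1 read. Prrx2, its paralogue, was at 2.75, 1.97 and 1.44 CPM in the high-Col1a1 lines, against 0 to 0.656 CPM with a median of 0 CPM in the other lines. Twist1, a driver of epithelial to mesenchymal transition, was at 6.11, 1.53 and 9.395 CPM in the high-Col1a1 lines, against 0.0288 to 6.36 CPM with a median of 0.487 CPM in the other lines. Zeb2, another repressor of epithelial genes, was at 14.98, 16.1 and 16.6 CPM in the high-Col1a1 lines, against 0.0954 to 37.5 CPM with a median of 3.06 CPM in the other lines. Twist1 and Zeb2 overlapped, with lentiviral SKM replicate 4 and retroviral OSKM replicate 3 the highest of the others. Snai1, which represses Cdh1, was at 95.7, 43.9 and 107 CPM in the high-Col1a1 lines, against 5.84 to 388 CPM with a median of 140.1 CPM in the other lines, and all 3 high-Col1a1 lines lay under that median. The list median was 2.08, 1.18 and 0.94 on the log2 scale in the high-Col1a1 lines and −0.88 to 0.33 in the other lines, a gap without overlap.

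All 18 genes of the fibroblast surface and cytoskeleton list passed the filter, and Ddr2 stood apart. Ddr2, a receptor tyrosine kinase that binds fibrillar collagen, was at 18.3, 10.6 and 80.4 CPM in the high-Col1a1 lines, against 0.0528 to 2.99 CPM with a median of 0.268 CPM in the other lines. Retroviral OSKM replicate 1 held the highest Ddr2 level. S100a4, a calcium-binding protein known as fibroblast-specific protein, was at 26.9, 12.1 and 41.6 CPM in the high-Col1a1 lines, against 0 to 12.8 CPM with a median of 0.0574 CPM in the other lines, where lentiviral SKM replicate 1 lay just below lentiviral SKM replicate 2. Ly6a, the stem cell antigen Sca-1, was at 11.8, 24.1 and 617 CPM in the high-Col1a1 lines, against 0.265 to 13.2 CPM with a median of 1.28 CPM in the other lines. Ly6a belongs to a family of closely related genes between which reads may be shared, and its level in retroviral OSKM replicate 1 was far above that of any other of the 15 lines. Cd34, a surface sialomucin of vascular and progenitor cells and some fibroblasts, was at 1.46, 0.877 and 78.4 CPM in the high-Col1a1 lines, against 0 to 0.345 CPM with a median of 0 CPM in the other lines. Cspg4, the pericyte proteoglycan NG2, was at 4.37, 3.15 and 35.4 CPM in the high-Col1a1 lines, against 0.266 to 3.33 CPM with a median of 1.41 CPM in the other lines. Cd34 and Cspg4 were also far higher in retroviral OSKM replicate 1 than in the lentiviral pair. Vimentin (Vim), the intermediate filament of mesenchymal cells, was at 1204, 1169 and 1118 CPM in the high-Col1a1 lines, against 413 to 1782 CPM with a median of 701 CPM in the other lines, high in all 15 lines. The list median was 3.93, 2.51 and 3.93 in the high-Col1a1 lines and −0.16 to 2.03 on the same log2 scale in the other lines.

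Contractile and TGF-beta genes together gave 1 of the 9. Of 11 contractile genes 9 passed the filter and none stood apart. Acta2, smooth muscle actin, was at 71.7, 85.8 and 8.49 CPM in the high-Col1a1 lines, against 0.319 to 75.9 CPM with a median of 7.29 CPM in the other lines. Tagln, an early smooth muscle protein, was at 24.1, 36.9 and 4.103 CPM in the high-Col1a1 lines, against 2.67 to 6.02 CPM with a median of 3.95 CPM in the other lines, high in the lentiviral pair and inside the range of the others in retroviral OSKM replicate 1. All 12 TGF-beta pathway genes passed, and 1 stood apart: Inhba, the activin A subunit, was at 1.55, 1.89 and 1.84 CPM in the high-Col1a1 lines, against 0 to 0.4 CPM with a median of 0 CPM in the other lines. The ligand Tgfb2 was at 4.35, 6.21 and 4.05 CPM in the high-Col1a1 lines, against 0.0492 to 7.31 CPM with a median of 1.79 CPM in the other lines. Tgfb2 did not separate the lines.

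**Figure D3:**
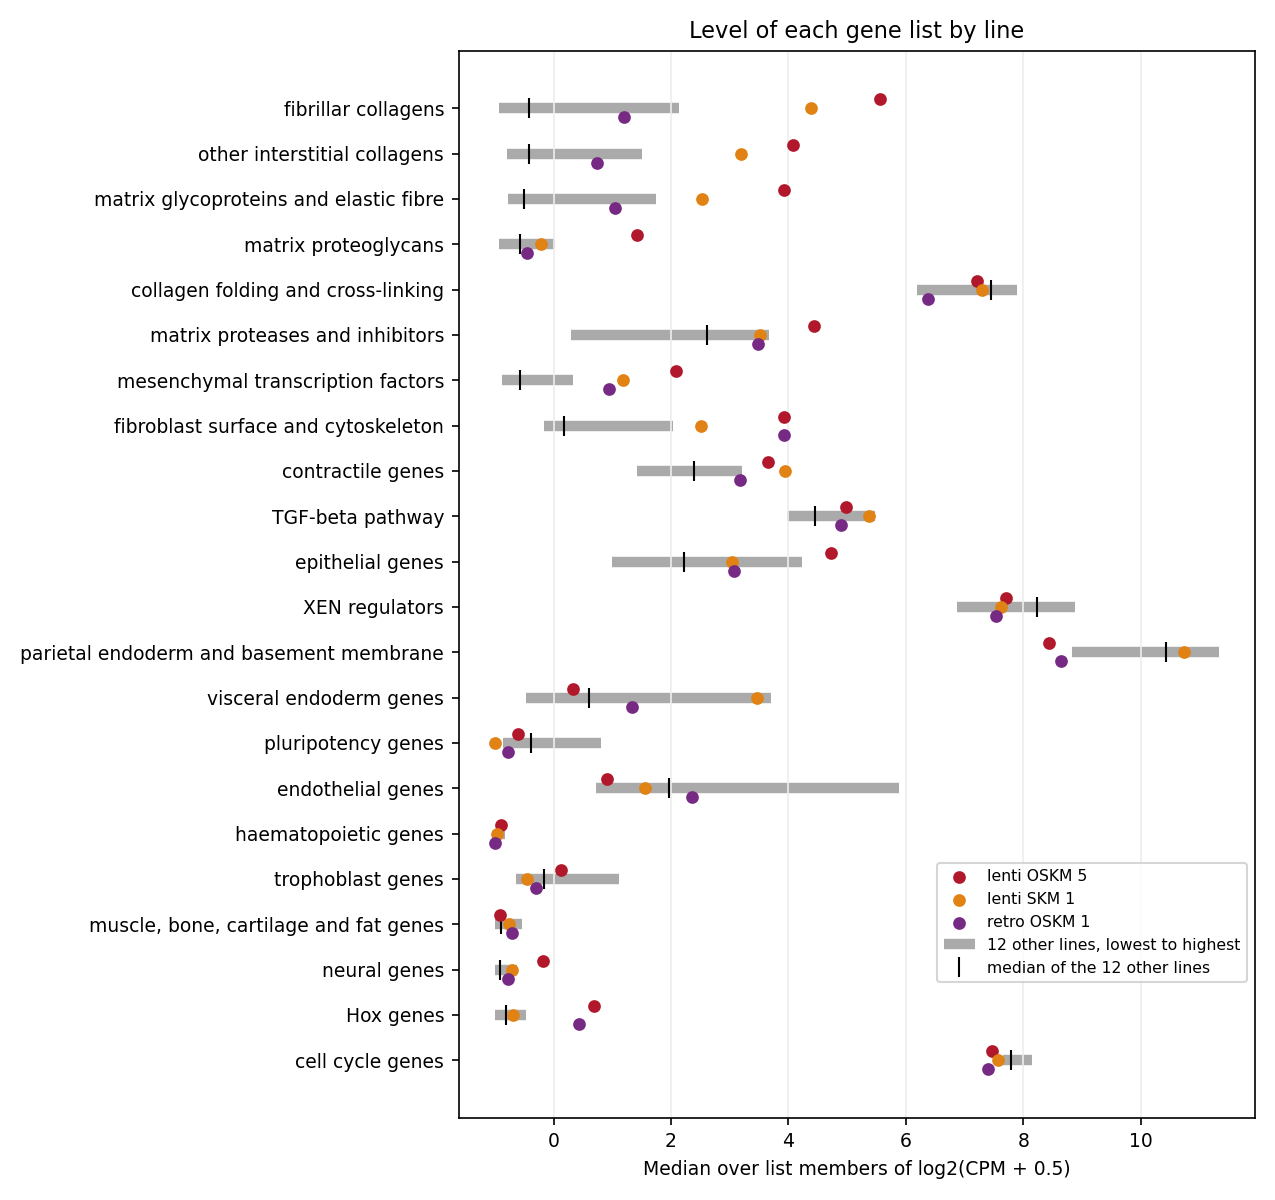
Median over the members of each gene list of log2(CPM + 0.5); coloured points are the 3 high-Col1a1 lines, grey bars run from the lowest to the highest of the 12 other lines and the tick is their median. The transcription factor and fibroblast surface lists place all 3 coloured points above the bar, and the cell cycle list places all 3 below it. For fibrillar and other interstitial collagens and glycoproteins, retroviral OSKM replicate 1 lies inside the bar.

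Over all genes, the 12 largest upward differences among genes without overlap and with a median of at least 5 CPM were those of Col1a1, Tm4sf1, Cav1, Prrx1, Col6a3, Ccnd1, Efemp1, Cyp1b1, Ddr2, Fbln5, Ltbp1 and Syne2. Tm4sf1, a small tetraspan membrane protein of endothelial and mesenchymal cells, was at 30.4, 4.63 and 123 CPM in the high-Col1a1 lines, against 0 to 1.09 CPM with a median of 0.0718 CPM in the other lines. Ccnd1, cyclin D1, which drives entry into S phase, was at 32.96, 16.7 and 329.9 CPM in the high-Col1a1 lines, against 0.164 to 6.32 CPM with a median of 0.597 CPM in the other lines. In both, retroviral OSKM replicate 1 was the highest line. Efemp1, a fibulin of the extracellular matrix, was at 14.6, 1.77 and 23.7 CPM in the high-Col1a1 lines, against 0 to 1.33 CPM with a median of 0.0346 CPM in the other lines. Cyp1b1, a steroid and xenobiotic oxidising cytochrome, was at 11.3, 44.05 and 13.2 CPM in the high-Col1a1 lines, against 0 to 2.01 CPM with a median of 0 CPM in the other lines. Syne2, a giant nesprin that ties the nucleus to the cytoskeleton, was at 65.95, 36.7 and 137 CPM in the high-Col1a1 lines, against 0.0572 to 31.01 CPM with a median of 2.497 CPM in the other lines. Cyp1b1 was highest in lentiviral SKM replicate 1, and Efemp1 and Syne2 in retroviral OSKM replicate 1.

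Cav1, caveolin-1, the coat protein of caveolae, was at 31.95, 14.2 and 38.4 CPM in the high-Col1a1 lines, against 0 to 4.67 CPM with a median of 0.208 CPM in the other lines. After its value was seen, the other caveolar genes were looked up among those standing apart. Cavin1, the coat assembly factor, was at 51.3, 27.8 and 139 CPM in the high-Col1a1 lines, against 0.93 to 10.6 CPM with a median of 2.83 CPM in the other lines. Cav2, the partner of Cav1, was at 5.31, 2.12 and 25.6 CPM in the high-Col1a1 lines, against 0 to 1.103 CPM with a median of 0.165 CPM in the other lines. These genes had their highest level in retroviral OSKM replicate 1. Cavin3 was at 5.31, 2.93 and 65.4 CPM in the high-Col1a1 lines, against 0 to 2.02 CPM with a median of 0.155 CPM in the other lines. Cavin2 was at 8.36, 5.76 and 3.65 CPM in the high-Col1a1 lines, against 0.0272 to 2.36 CPM with a median of 0.675 CPM in the other lines. That all 5 lay above every other line follows from where they were looked up.

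Taken line by line, 107 genes in lentiviral OSKM replicate 5 (0.715% of 14967) were at least 4-fold above all 12 other lines on the log2(CPM + 0.5) scale, and 20 of them were mesenchymal list genes. In lentiviral SKM replicate 1 the count was 32 genes (0.214%), with 9 mesenchymal ones. In retroviral OSKM replicate 1 it was 167 genes (1.12%), with 8 mesenchymal ones. These counts share the same 12 lines and are therefore given side by side and not as an overlap. The mesenchymal genes so counted in lentiviral OSKM replicate 5 included 6 fibrillar collagens (Col1a1, Col1a2, Col2a1, Col3a1, Col5a1 and Col5a2), and those in retroviral OSKM replicate 1 were Col1a1, Fbln5, Pcolce, Prrx1, Ly6a, Cd34, Cspg4 and Ddr2. Lentiviral SKM replicate 1 gave Col1a1, Col2a1, Col3a1, Col5a2, Col12a1, Fbln5, Tnc, Lox and Tagln. By the levels given above, genes such as Col2a1, Col3a1, Col5a2, Col12a1, Tnc and Lox were high in the lentiviral pair and not in retroviral OSKM replicate 1. Fbln5 was high in each high-Col1a1 line. Retroviral OSKM replicate 1 carried type I and type VI collagen transcripts with high Prrx1 and surface genes, but Col3a1, Lox, Loxl1 and Tnc at the level of the other lines.

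Lentiviral SKM replicate 2, the line next below the threshold, was the highest of the 12 other lines for 31 of the 114 mesenchymal genes that passed the filter (27.2%), against 766 of 14967 genes (5.12%). Col1a1, which chose the lines, is among the 31. Others, such as Prrx1, Col3a1 and Tnc, passed the filter only with high-Col1a1 lines counted. Nothing is therefore read from the difference between these shares. Lentiviral SKM replicate 2 had 3.92 CPM of Col3a1, 4.96 CPM of Thy1, 4.57 CPM of Prrx1 and 12.8 CPM of S100a4. In the remaining 11 lines Col3a1 did not exceed 0.0656 CPM and Thy1 did not exceed 0.123 CPM. Its Col3a1 and Thy1 levels were above those of retroviral OSKM replicate 1, and its S100a4 level was above that of lentiviral SKM replicate 1. A threshold of 10 CPM would have included it. With it counted among the high lines, 14 mesenchymal genes and 50 genes in all stood higher; leaving it out gave 16 and 123.

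Regulators of extraembryonic endoderm were present in all 3 high-Col1a1 lines. Gata4, a factor that establishes primitive endoderm, was at 1067, 1001 and 841 CPM in the high-Col1a1 lines, against 610.2 to 1369.8 CPM with a median of 1082 CPM in the other lines. Gata6, its partner, was at 295, 368 and 320.0 CPM in the high-Col1a1 lines, against 116 to 572 CPM with a median of 439.5 CPM in the other lines. Sox17, another endoderm factor, was at 498, 425 and 354 CPM in the high-Col1a1 lines, against 294 to 674 CPM with a median of 477 CPM in the other lines. All 11 XEN regulators passed the filter and overlapped between the sets of lines, with a median difference of −0.11 on the log2 scale. Sox7 had the largest difference of the list, being at 142, 129.9 and 184 CPM in the high-Col1a1 lines, against 31.4 to 797 CPM with a median of 348 CPM in the other lines. The list median was 7.71, 7.61 and 7.53 in the high-Col1a1 lines and 6.87 to 8.89 in the other lines.

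The basement membrane genes split within the high-Col1a1 lines. The laminin chains were abundant throughout: Lama1 was at 14286, 22575 and 10119 CPM in the high-Col1a1 lines, against 1992 to 23384 CPM with a median of 12419 CPM in the other lines. Lamc1 was at 13736, 20068 and 10005 CPM in the high-Col1a1 lines, against 1144 to 20083 CPM with a median of 12596 CPM in the other lines. Type IV collagen behaved differently, and Col4a2 (chr8:11312805-11449287, plus strand), the second chain of the same trimer, was at 45.2, 6832 and 48.5 CPM in the high-Col1a1 lines, against 2673 to 12056 CPM with a median of 5251 CPM in the other lines. In lentiviral OSKM replicate 5 and retroviral OSKM replicate 1, the differences from the median of the other lines were −7.42 and −7.68 on the log2 scale for Col4a1 and −6.84 and −6.74 for Col4a2. In lentiviral SKM replicate 1 Col4a1 and Col4a2 lay 0.39 and 0.38 above that median, so the low level was not shared by all 3 lines. Both genes were among the 18 genes (0.12%) at least 4-fold below all 12 other lines in lentiviral OSKM replicate 5 and the 12 genes (0.0802%) so placed in retroviral OSKM replicate 1; in lentiviral SKM replicate 1 there were 3 (0.02%), none an endoderm list gene. Nid1, nidogen, which links laminin to type IV collagen, was at 415, 1805 and 883 CPM in the high-Col1a1 lines, against 738 to 4563 CPM with a median of 2424 CPM in the other lines, lowest in lentiviral OSKM replicate 5. Thrombomodulin (Thbd), a parietal endoderm surface protein, was at 12.9, 146 and 4.302 CPM in the high-Col1a1 lines, against 2.84 to 646 CPM with a median of 281 CPM in the other lines. Low Thbd was not limited to the pair with low Col4a1. Retroviral OSKM replicates 4 and 2 had 2.84 and 17.4 CPM of Thbd, with Col4a1 at 5379 and 11090.5 CPM. Col4a5, a chain of a different type IV trimer, was at 14.4, 8.17 and 0.396 CPM in the high-Col1a1 lines, against 0 to 1.63 CPM with a median of 0.272 CPM in the other lines, higher in the lentiviral pair. Of 45 endoderm list genes, 40 passed the filter, and none stood lower by the 4-fold rule. Without overlap at any fold 1 stood lower, as 0.548% of all genes did. This was Amn, a partner of the endocytic receptor cubilin, at 0.0622, 0.121 and 0.0849 CPM in the high-Col1a1 lines against 0.192 to 17.7 CPM in the other lines. In the high-Col1a1 lines Amn lay near the limit of 3 counts, which is 0.0466, 0.0454 and 0.0849 CPM.

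Col4a1 and Col4a2 are transcribed head to head, and their windows, shown because both genes were low in the same lines, share 78 bases. The Col4a1 window is chr8:11312777-11313076 (minus strand) and the Col4a2 window is chr8:11312555-11312854 (plus strand), both from RefSeq on GRCm38.p6, each 5′ to 3′ on the gene's own strand with the same motifs in capitals.
Col4a1: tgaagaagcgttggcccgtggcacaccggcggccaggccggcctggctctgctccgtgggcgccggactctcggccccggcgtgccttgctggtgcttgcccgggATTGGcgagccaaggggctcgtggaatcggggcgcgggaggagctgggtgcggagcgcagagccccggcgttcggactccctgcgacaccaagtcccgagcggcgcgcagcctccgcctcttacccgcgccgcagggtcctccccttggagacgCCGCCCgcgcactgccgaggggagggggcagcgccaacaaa
Col4a2: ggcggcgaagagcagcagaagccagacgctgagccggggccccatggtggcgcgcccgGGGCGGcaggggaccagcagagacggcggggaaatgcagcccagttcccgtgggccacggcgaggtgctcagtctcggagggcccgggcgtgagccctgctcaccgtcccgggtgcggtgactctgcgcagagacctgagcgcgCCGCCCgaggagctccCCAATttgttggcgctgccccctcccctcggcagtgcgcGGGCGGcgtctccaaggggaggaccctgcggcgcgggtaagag
The Col4a1 window held 1 match to CCAAT and 1 to GGGCGG. The Col4a2 window held 1 and 3. The GGGCGG match of the Col4a1 window and 1 of the 3 in the Col4a2 window are the same bases, inside the shared stretch. The CCAAT match of the Col4a2 window was 32 bases before its start.

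**Figure D4:**
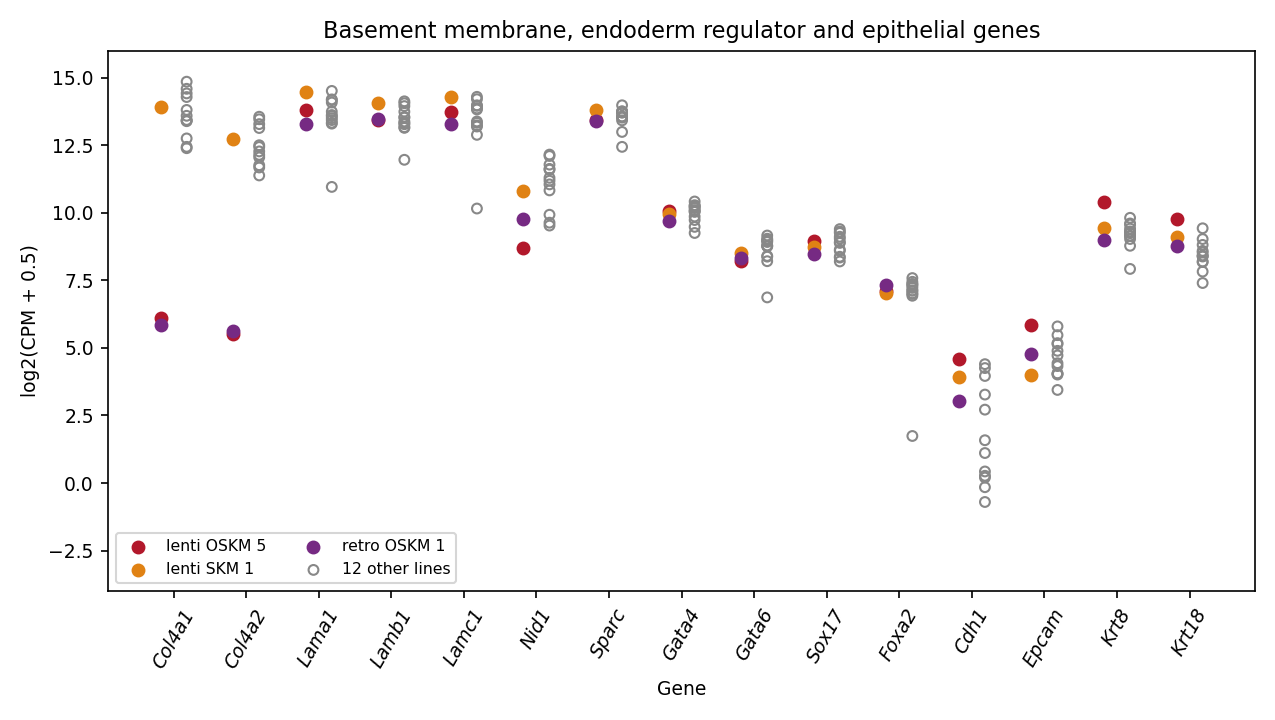
Levels of 15 basement membrane, endoderm regulator and epithelial genes as log2(CPM + 0.5); coloured points are the 3 high-Col1a1 lines and open circles, to their right, the 12 other lines. Col4a1 and Col4a2 are low in 2 coloured lines, while laminins, regulators, cadherin and keratins overlap.

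Epithelial genes were present in all 3 high-Col1a1 lines. Of 30 genes, 26 passed the filter, and none stood apart. Cdh1, E-cadherin, was at 23.6, 14.8 and 7.67 CPM in the high-Col1a1 lines, against 0.114 to 20.6 CPM with a median of 2.08 CPM in the other lines. Epcam, an epithelial adhesion molecule, was at 56.9, 15.6 and 26.998 CPM in the high-Col1a1 lines, against 10.4 to 55.1 CPM with a median of 23.5 CPM in the other lines. Krt8, a simple epithelial keratin, was at 1349, 686 and 508 CPM in the high-Col1a1 lines, against 242 to 901 CPM with a median of 618 CPM in the other lines. The highest Cdh1, Epcam and Krt8 levels of the 15 lines were in lentiviral OSKM replicate 5, the line with the most Col1a1. Cldn6, a claudin of embryonic epithelia, was at 2.75, 4.37 and 24.6 CPM in the high-Col1a1 lines, against 0.672 to 114 CPM with a median of 38.8 CPM in the other lines, and its values overlapped. The list median was 4.72, 3.04 and 3.07 on the log2 scale in the high-Col1a1 lines, against 0.99 to 4.24 in the other lines.

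Visceral endoderm genes did not separate the sets of lines either. Cubn, the endocytic receptor cubilin, was at 249.9, 1049.7 and 38.1 CPM in the high-Col1a1 lines, against 9.88 to 551 CPM with a median of 76.99 CPM in the other lines. Apob, a lipoprotein component, was at 0.761, 90.3 and 2.01 CPM in the high-Col1a1 lines, against 0 to 65.1 CPM with a median of 1.09 CPM in the other lines. Both were high in lentiviral SKM replicate 1, which had a list median of 3.46, against 0.34 in lentiviral OSKM replicate 5 and 1.33 in retroviral OSKM replicate 1. The other lines ran from −0.47 to 3.70, the highest being lentiviral SKM replicate 4.

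Markers of other cell types differed in level. Haematopoietic, neural and muscle, bone, cartilage or fat lists had medians below 0 on the log2(CPM + 0.5) scale, that is below 0.5 CPM, in all 15 lines. The summed level of the 10 haematopoietic markers was 28.5, 11.6 and 57.0 CPM in the high-Col1a1 lines and 4.17 to 30.2 CPM in the other lines, with 2 or 3 of the 10 above 1 CPM in any line. Ptprc, the pan-leukocyte antigen CD45, had no read in the high-Col1a1 lines and at most 0.315 CPM in the other lines. Csf1r, the receptor of macrophage growth factor, was at 18.5, 6.35 and 30.2 CPM in the high-Col1a1 lines, against 1.38 to 10.8 CPM with a median of 5.07 CPM in the other lines. The 9 trophoblast genes summed to 26.2, 5.61 and 16.3 CPM in the high-Col1a1 lines and 2.41 to 26.8 CPM in the other lines. None of these sums placed all 3 high-Col1a1 lines beyond the others. The 8 neural genes summed to 134, 105 and 120.5 CPM in the high-Col1a1 lines and 19.5 to 190.4 CPM in the other lines. The 13 muscle, bone, cartilage or fat genes summed to 28.7, 21.8 and 27.5 CPM in the high-Col1a1 lines and 2.15 to 27.4 CPM in the other lines. Endothelial transcripts were the most abundant of these, and the 10 markers summed to 482, 737 and 453 CPM in the high-Col1a1 lines and 394 to 799 CPM in the other lines. Cdh5, VE-cadherin, was at 14.7, 350.2 and 209.9 CPM in the high-Col1a1 lines, against 125 to 424 CPM with a median of 267 CPM in the other lines, lowest in lentiviral OSKM replicate 5. The part of these cell types in the matrix levels was not tested.

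Zfp42, a marker of pluripotent and some extraembryonic cells, had 0 reads in all 3 high-Col1a1 lines, which allows up to 0.0466, 0.0454 and 0.0849 CPM. It ranged from 0 to 13.8 CPM in the other lines, of which lentiviral OSKM replicate 2, retroviral OSKM replicate 3 and retroviral OSKM replicate 4 had at most 1 read. A near lack of Zfp42 reads was therefore seen in 3 of the other lines too.

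Genes standing lower were few. Of the 6 by the 4-fold rule, Tex13b, a testis-expressed gene, was named by the rule of size used here and was at 2.098, 2.15 and 0.877 CPM in the high-Col1a1 lines, against 3.76 to 81.8 CPM with a median of 28.2 CPM in the other lines. With the same floor of 5 CPM, the 12 largest downward differences without overlap, at any fold, were those of Tex13b, Ggt7, Ccnb2, Zfp775, Ptgis, Acat1, Limk1, Crlf2, Ing1, Cdc25a, Gmnn and Chaf1b. Ccnb2, a mitotic cyclin, was at 6.51, 26.1 and 31.7 CPM in the high-Col1a1 lines, against 53.4 to 139.6 CPM with a median of 82.7 CPM in the other lines. Gmnn, geminin, which blocks re-licensing of replication, was at 50.4, 37.9 and 29.5 CPM in the high-Col1a1 lines, against 57.99 to 90.1 CPM with a median of 74.4 CPM in the other lines. Cdc25a, a phosphatase that activates cell cycle kinases, was at 51.6, 42.7 and 41.5 CPM in the high-Col1a1 lines, against 54.01 to 101 CPM with a median of 85.3 CPM in the other lines. Chaf1b, a subunit of the chromatin assembly factor at replication forks, was at 40.1, 41.4 and 27.9 CPM in the high-Col1a1 lines, against 47.6 to 127 CPM with a median of 77.3 CPM in the other lines. The differences of these 4 were −1.64 to −0.94 on the log2 scale. They were picked from the mixed list of 12 for their roles in the cell cycle or replication. Ccnd1, another cell cycle gene, went the other way, with a difference of 4.93. The cell cycle list of 11 genes was, like the other lists, chosen with earlier results of these data known. In it 1 gene, Ccnb1, stood lower without overlap, as 0.548% of all genes did. Ccnb1, cyclin B1, was at 203, 217 and 203 CPM in the high-Col1a1 lines, against 235 to 336 CPM with a median of 273 CPM in the other lines. The median difference of that list was −0.41, against 0.04 over all genes, and 9 of its 11 members had a difference below 0, against 6945 of 14967 genes. The list median was 7.46, 7.56 and 7.40 on the log2 scale in the high-Col1a1 lines, below the 7.65 to 8.14 of the other lines.

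Whether Col1a1 and the mesenchymal lists followed the labelled groups was tested with edgeR's quasi-likelihood test on counts, adjusted over all genes by Benjamini-Hochberg. Both comparisons use the lentiviral OSKM lines. Col1a1 averaged 31.4 ± 64.4 CPM in lentiviral SKM lines and 42.8 ± 95.4 CPM in lentiviral OSKM lines (SD, n = 5 each), a log2 fold change of −0.27 (standard error, SE, 2.32; edgeR adjusted p = 0.999). In retroviral OSKM lines it averaged 10.7 ± 23.3 CPM, a log2 fold change of −1.90 over lentiviral OSKM lines (SE 2.40, edgeR adjusted p = 0.763). In each group 1 line carried most of the mean, so neither difference was larger than the spread between lines.

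Between lentiviral SKM and lentiviral OSKM lines 0 of 15899 genes passed (0%), with 773 at an unadjusted p under 0.05; DESeq2 called 44. Of 103 mesenchymal list genes tested, 0 passed with either tool and 7 had an unadjusted p under 0.05. Those with the smallest p were the hyaluronan receptor Cd44, the bone factor Runx2, the intermediate filament gene Des and the microfibril gene Fbn1. Cd44 averaged 33.8 ± 4.06 CPM in lentiviral SKM lines and 51.0 ± 12.4 CPM in lentiviral OSKM lines (SD, n = 5 each; log2 fold change −0.55, SE 0.18, edgeR adjusted p = 0.979). Without the high-Col1a1 lines 0 of 15925 genes passed (0%) by edgeR, with 1105 at an unadjusted p under 0.05.

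Between retroviral OSKM and lentiviral OSKM lines 39 of 15483 genes passed (0.252%), 17 higher (0.11%) and 22 lower (0.142%) in retroviral OSKM lines. Leaving out 1 line gave 15 to 101 genes, and DESeq2 called 623. Of 97 mesenchymal list genes tested, 1 passed by edgeR, and DESeq2 called 9, all lower. Vcan, versican, a large chondroitin sulphate proteoglycan, had 4.39, 11.9, 10.01, 10.1 and 6.11 CPM in the 5 retroviral OSKM lines, against 152, 204, 63.9, 167 and 57.8 CPM in the 5 lentiviral OSKM lines. The groups did not overlap, and Vcan fell by 3.93 on the log2 scale (SE 0.45, edgeR adjusted p = 0.00618). Without the high-Col1a1 lines 10 of 15515 genes passed (0.0645%), Vcan among them with a log2 fold change of −3.96 (SE 0.38, edgeR adjusted p = 0.00836). Delivery, cloning and count table are the same split in this comparison and cannot be told apart. The median log2 fold change of the tested mesenchymal genes was −0.45, against 0.03 over all genes, and −0.51 against 0.04 without the high-Col1a1 lines. It was −0.18 without lentiviral OSKM replicate 5 and −0.89 without retroviral OSKM replicate 1. Among the lines themselves, Vcan did not separate the high-Col1a1 set, being at 57.8, 39.1 and 4.39 CPM in the high-Col1a1 lines, against 6.11 to 204 CPM with a median of 61.04 CPM in the other lines.

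**Figure D5:**
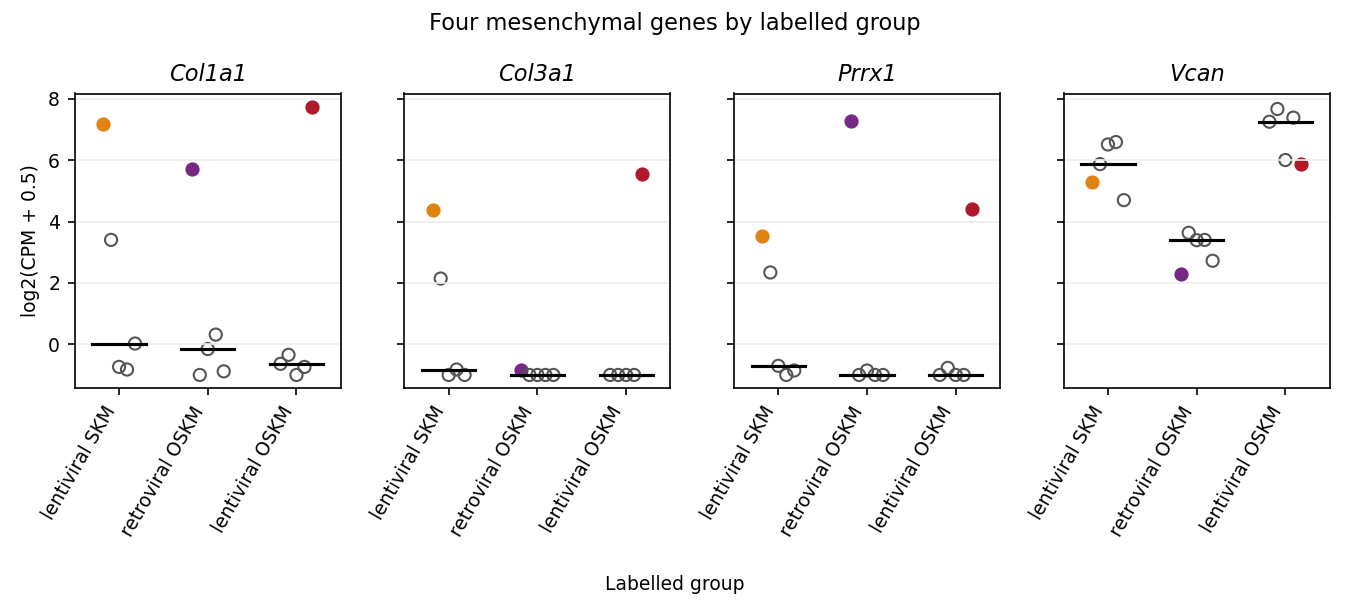
Levels of Col1a1, Col3a1, Prrx1 and Vcan as log2(CPM + 0.5) in the 3 labelled groups of 5 lines, 1 point per line; filled coloured points are the high-Col1a1 lines and bars are group medians. Col1a1 has 1 filled point far above the median in each group, and Vcan is lower in every retroviral OSKM line than in every lentiviral OSKM line.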

How the data were processed

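The values are read counts per gene as deposited, in 1 table of retroviral and 1 of lentiviral lines, from polyadenylated RNA and a stranded kit per the labels' protocols. The submitters' processing notes list SAMtools 1.9, HTSeq 0.11.2, Trimmomatic 0.39, HISAT2 2.1.0 and FastQC 0.11.7, and the build mm10. No source used here gives the annotation, the strand setting or the meaning of "filtered" in the tables' names, so overlapping and antisense genes are uncertain. The 5 summary entries of each library name no gene and were left out; gene entries were 68.8% to 77.0% of a library. CPM are counts over the sum of gene rows. Of 43432 identifiers, 42462 matched a symbol; positions are GENCODE M21 on GRCm38, the assembly of mm10.

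The lines were split at a Col1a1 level of 25 CPM and described by log2(CPM + 0.5) without a test. Labelled groups were compared with edgeR 4.0.16 in R 4.3.3 (TMM scaling, filterByExpr with a minimum count of 10, threshold 0.05) on their own 10 libraries, and with DESeq2 1.42.0 as an alternative. The edgeR fit and the rule for genes standing apart were run on simulated counts as a check of the code. Those counts had the same dispersion for every gene and no outlying line, so they do not give the error rates in these data. The split counted genes with at least 0.5 CPM in at least 3 lines. Python 3.11.15 was used for the description. Retroviral libraries were shallower, so their low genes are less precise. Each library is 1 line, and p-values measure the spread between lines. The SE beside an edgeR fold change was derived as the absolute log2 fold change over the square root of the F statistic.

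Members, the 22 gene lists (333 members) and tests were chosen with earlier results of these data known. Named genes were up to 6 members of each list with the largest difference either way, the 12 largest differences each way without overlap at a median of at least 5 CPM in the higher set (clone-named genes left out), and for the labelled groups the mesenchymal genes that passed or the 4 with the smallest p. Members named beyond that rule (among them Snai1, Vim, Cd34, Cspg4, Serpinh1, P4ha1, the laminins, Gata4, Sox17, Epcam, Krt8, Eln, Lum, Amn, Ptprc, Pou5f1, Nanog, Tgfbi and Foxc1) and the caveolar genes were chosen after their values were seen. A gene that the rule names is not reported here.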

Additional observations from a re-analysis of the deposited data

Results flagged for a closer look

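In each labelled group of 5 lines, the highest and lowest line was compared with the rest for 25 measures: Col1a1, Thy1, Col4a1 and the median level of each of the 22 lists, all as log2(CPM + 0.5). A line was marked when its gap to the nearest line, divided by the range of the group, exceeded 0.71. This marked 18 values over 75 pairs of group and measure. Chance marks about 1 in 20 groups, and the measures are related to one another. The 3 lines were chosen for high Col1a1, and Col1a1 is also in the fibrillar collagen list, so the marks for these measures restate the choice and are no test of it.

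In the lentiviral OSKM group, replicate 5 stood apart as the highest line for Col1a1 (0.925), Thy1 (0.963), fibrillar collagens (0.923), other interstitial collagens (0.778), matrix glycoproteins and elastic fibre (0.858), matrix proteoglycans (0.771) and mesenchymal transcription factors (0.819). It was also the highest for neural genes (0.922), at a median of −0.18 against −0.94 to −0.88 in its group, and for Hox genes (0.835), and the lowest for Col4a1 (0.891). Its list median for fibrillar collagens was 5.55, against −0.46 to 0.01 in the rest of the group.

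In the retroviral OSKM group, replicate 1 stood apart as the highest line for Col1a1 (0.804), Thy1 (0.959), other interstitial collagens (0.759), mesenchymal transcription factors (0.799), fibroblast surface and cytoskeleton (0.726) and Hox genes (0.806), and as the lowest for Col4a1 (0.727). Its Thy1 level was 0.46 on the log2 scale, against −1 to −0.94 in the rest of the group, a small level that stands out because the others had almost no reads.

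In the lentiviral OSKM group, replicate 1, which is not a high-Col1a1 line, stood apart as the highest for pluripotency genes (0.733), at a list median of 0.21 against −0.86 to −0.58. No line of the lentiviral SKM group was marked.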

How the results depend on the processing

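With the Col1a1 threshold at 10 CPM, 50 genes stood higher, 2 lower and 14 mesenchymal genes higher, against 103, 6 and 9 as reported; at 50 CPM the counts did not move. At 2-fold between medians 174 stood higher and 19 lower, at 8-fold 53 stood higher, and with a pseudocount of 0.1 CPM 15 stood lower. Among lentiviral lines alone 257 stood higher, 56 lower, 31 mesenchymal genes higher and 1 endoderm gene lower. Leaving out 1 line at a time, including the other lines, which was added after the data were seen, gave 99 to 266 higher, 6 to 22 lower, 9 to 29 mesenchymal genes higher and 0 to 2 endoderm genes lower. The extremes came without high-Col1a1 lines: 266, 21, 18 and 2 without lentiviral SKM replicate 1; 182, 22 and 29 higher, lower and mesenchymal without retroviral OSKM replicate 1; 22 lower without lentiviral OSKM replicate 5. Without lentiviral OSKM replicate 3, retroviral OSKM replicate 3 or retroviral OSKM replicate 4, 10, 11 and 14 stood lower. TMM factors, filterByExpr and a pseudocount of 1 CPM moved no count by more than 1.5 times. For single named genes, 1003 of 1078 differences moved by at most 1 SD of the high-Col1a1 lines and 75 moved by more, with no change of sign among genes standing apart; the cause of these changes was not tested.

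DESeq2 called 44 genes between lentiviral SKM and lentiviral OSKM lines, where edgeR called 0 and leaving out any line also gave 0. Between retroviral OSKM and lentiviral OSKM lines DESeq2 called 623 genes and 9 mesenchymal ones, no filter on low counts gave 24, and omitting the high-Col1a1 lines gave 10. Leaving out 1 line gave 15 to 101 genes and 1 to 2 mesenchymal ones: 101 without retroviral OSKM replicate 5, 23, 21 and 15 without retroviral OSKM replicates 1, 2 and 4, and 15, 17 and 21 without lentiviral OSKM replicates 1, 2 and 4.

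The labels number replicates 1 to 5 in each group. Same-numbered lines correlated at −0.16 to 0.27 and −0.17 to 0.04 in the 2 comparisons, so the numbers do not pair lines. With the replicate block 0 genes passed in the first comparison and 3 in the second, with 0 mesenchymal ones (Vcan log2 fold change −3.81, adjusted p = 0.0682). The Col1a1 fold change reversed to 3.37 and 1.62 under the block, to 4.33 without the high-Col1a1 lines in the first comparison (lines left out by the value compared), to 0.05 to 7.91 without lentiviral SKM replicates 3, 4 or 5 or lentiviral OSKM replicate 5, and to 6.29 in the second without lentiviral OSKM replicate 5. Leaving out 1 line at a time, the Col1a1 fold change ran from −3.85 to 7.91 and from −7.11 to 6.29.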

Other observations

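Hox genes, which pattern the embryonic body axis and keep positional expression in fibroblasts, were above 1 CPM for 23, 8 and 18 of 39 genes in the high-Col1a1 lines and for 2 to 12 in the other lines. Hoxb9 was at 2.41, 0.0151 and 13.8 CPM in the high-Col1a1 lines, against 0 to 0.4 CPM with a median of 0 CPM in the other lines. Hoxd8 was at 1.88, 0.181 and 23.6 CPM in the high-Col1a1 lines, against 0 to 1.01 CPM with a median of 0.0933 CPM in the other lines. Both were highest in retroviral OSKM replicate 1 and within the range of the other lines in lentiviral SKM replicate 1. Hoxc4 was at 3.36, 5.91 and 4.95 CPM in the high-Col1a1 lines, against 0.149 to 5.79 CPM with a median of 0.861 CPM in the other lines, overlapping the other lines. The list median was 0.70, −0.69 and 0.43 on the log2 scale in the high-Col1a1 lines, against −1 to −0.47 in the other lines.

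Retroviral OSKM replicate 1 also carried Pou5f1, the gene of Oct4, at 75.9 CPM and Sox2 at 68.6 CPM, against 0.0144 to 20.1 CPM and 0 to 5.04 CPM in the 12 other lines. Lentiviral OSKM replicate 5 and lentiviral SKM replicate 1 had 0.186 and 0 CPM of Pou5f1, and 0.777 and 0 CPM of Sox2. Reads from a delivered factor and from the cell's own gene cannot be told apart in these counts. Nanog was at 2.27, 0.0302 and 0.0849 CPM in the high-Col1a1 lines and 0.0328 to 0.787 CPM in the other lines.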
